A study of Homo sapiens with 18 samples.

Results

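The genes described here are the 42 genes of purine and pyrimidine nucleotide synthesis: the enzymes that build the purine and pyrimidine rings, salvage bases and nucleosides, add the second and the third phosphate, and make the deoxynucleotides for DNA. They were picked by gene symbol, and all 42 were found in the expression table, where 49 of its 21111 probes (19289 symbols) belong to them. Samples came from 3 triple-negative breast cancer (TNBC) cell lines, the mesenchymal-like BT549 and Hs578T and the basal-like SUM149PT, and were measured by TempO-Seq, in which pairs of detector oligos are ligated on their target RNA, amplified and counted. In each line ASAP1, an Arf GTPase-activating protein, was silenced with a SMARTpool of siRNAs (siASAP1), and the control (siCtrl) was a pool of siRNAs against kinase genes. All cells received 50 nM siRNA and were lysed 72 h later, in biological triplicate, so that 18 libraries fell into 6 groups of 3. Each line is a single established culture, and because the lysates are bulk samples, fewer cells of a kind and less RNA per cell cannot be told apart.

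Cells make purines de novo on a ribose phosphate scaffold until inosine monophosphate is reached, where the route branches to AMP and to GMP. IMPDH1 and IMPDH2 carry out the same step, the oxidation that commits inosine monophosphate to GMP, and IMPDH2 is known as the form that proliferating cells induce. Pyrimidines are made as a free ring first, which CAD and DHODH make and UMPS turns into UMP. Ribonucleotide reductase then turns diphosphates of either kind into deoxynucleotides.

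All 18 libraries held between 4.63 M and 12.5 M reads. Values below are normalized counts (reads per probe scaled by library, as the authors deposited them on a log2 scale), and a probe was tested in a comparison when its mean normalized count there was at least 10. The line markers matched the labels in part: 7 of 9 mesenchymal probes had higher medians in BT549 and Hs578T than in SUM149PT, and 4 of 5 epithelial and basal probes had their highest median in SUM149PT. EPCAM had a median of 22292 in SUM149PT, 24.5 in Hs578T and 1.07 in BT549, while SPARC (probe 24939) had medians of 2.91, 16583 and 9150 in the same lines. CDH2, the mesenchymal cadherin, went against the labels, with a median of 1700 in SUM149PT against 508 in BT549 and 3710 in Hs578T. The mesenchymal factor ZEB1 and the basal keratin KRT14 had medians of 0 in every line. The ASAP1 probe gave 367, 730 and 783 in BT549 siASAP1 against 1107, 966 and 944 in siCtrl, and 782, 825 and 1261 in Hs578T siASAP1 against 1641, 1414 and 2697. In SUM149PT it gave 282, 468 and 184 against 1087, 189 and 1314, so that the library labelled SUM149PT siCtrl 2 lay within the siASAP1 range. That library also correlated least with the other 2 of its group (r = 0.773 across 10475 probes, against 0.846 to 0.961 in the other 17). The next lowest, at 0.846, was SUM149PT siASAP1 2. Values of SUM149PT calls, counts and medians are given with and without siCtrl 2. Over all 18 libraries ASAP1 had a Log2 FC of -0.96 (SE 0.31, limma, Benjamini-Hochberg adjusted p = 0.127).

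PAICS and PPAT, enzymes of the purine ring, are transcribed away from each other on chromosome 4, and NME1 and NME2, kinases that add the third phosphate, lie next to each other on chromosome 17. These DNA stretches are shown because 3 of the 4 members with an adjusted p under 0.05 over all libraries, PAICS, NME1 and NME2, belong to these loci. In GRCh38 (GENCODE release 29), PPAT is at chr4:56393362-56435615 on the minus strand, PAICS at chr4:56435741-56464579 on the plus strand, NME1 at chr17:51153536-51162428 and NME2 at chr17:51165435-51171747, both on the plus strand. Sequences are from RefSeq (GRCh38.p14, plus strand). The 125 bases between the GENCODE bounds of PPAT and PAICS, and the stretches around the letters CACGTG, the E-box, in capitals, read 5′ to 3′:
PPAT to PAICS, chr4:56435616-56435740: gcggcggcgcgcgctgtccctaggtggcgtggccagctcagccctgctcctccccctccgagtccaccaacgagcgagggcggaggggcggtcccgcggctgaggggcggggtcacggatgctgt
PAICS, chr4:56435783-56435801: tatttgctgCACGTGgaaa
NME1, chr17:51153584-51153607: gctgcgaacCACGTGggtcccggg
The E-box began at base 41 of the PAICS transcript whose RefSeq start lies nearest to the PPAT start and at base 35 of the NME1 transcript. It reads the same on both strands, and it was present in the window from 250 bases before to 50 bases after the start for 7 of the 39 members with a RefSeq window (17.9%: PPAT, PAICS, ATIC, AK4, DHODH, NME1 and DCK), against 2396 of 27305 genes (8.77%). The PPAT and PAICS windows overlap and hold the same E-box, so this site was counted for both. A match is a description of these letters only.

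Over all 18 libraries, with cell line as a covariate, 39 member probes were tested. Of them 4 fell and none rose at an adjusted p under 0.05: PAICS, IMPDH2, NME1 (probe 4611) and NME2. Across all 10475 probes tested, 1.06% fell and 0.678% rose by the same limit (1.74% in either direction, against 10.3% of the member probes). The median Log2 FC of the 39 was -0.41, with 31 below 0, against a median of 0.02 over all probes. At an unadjusted p under 0.05 there were 11 of 39, where 15.8% of all probes passed. With the replicate number as a block none of the 4 members that fell passed (adjusted p of 0.050 to 0.144 by limma). Of all 10475 probes 20 then fell and 14 rose.

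**Figure D1:**
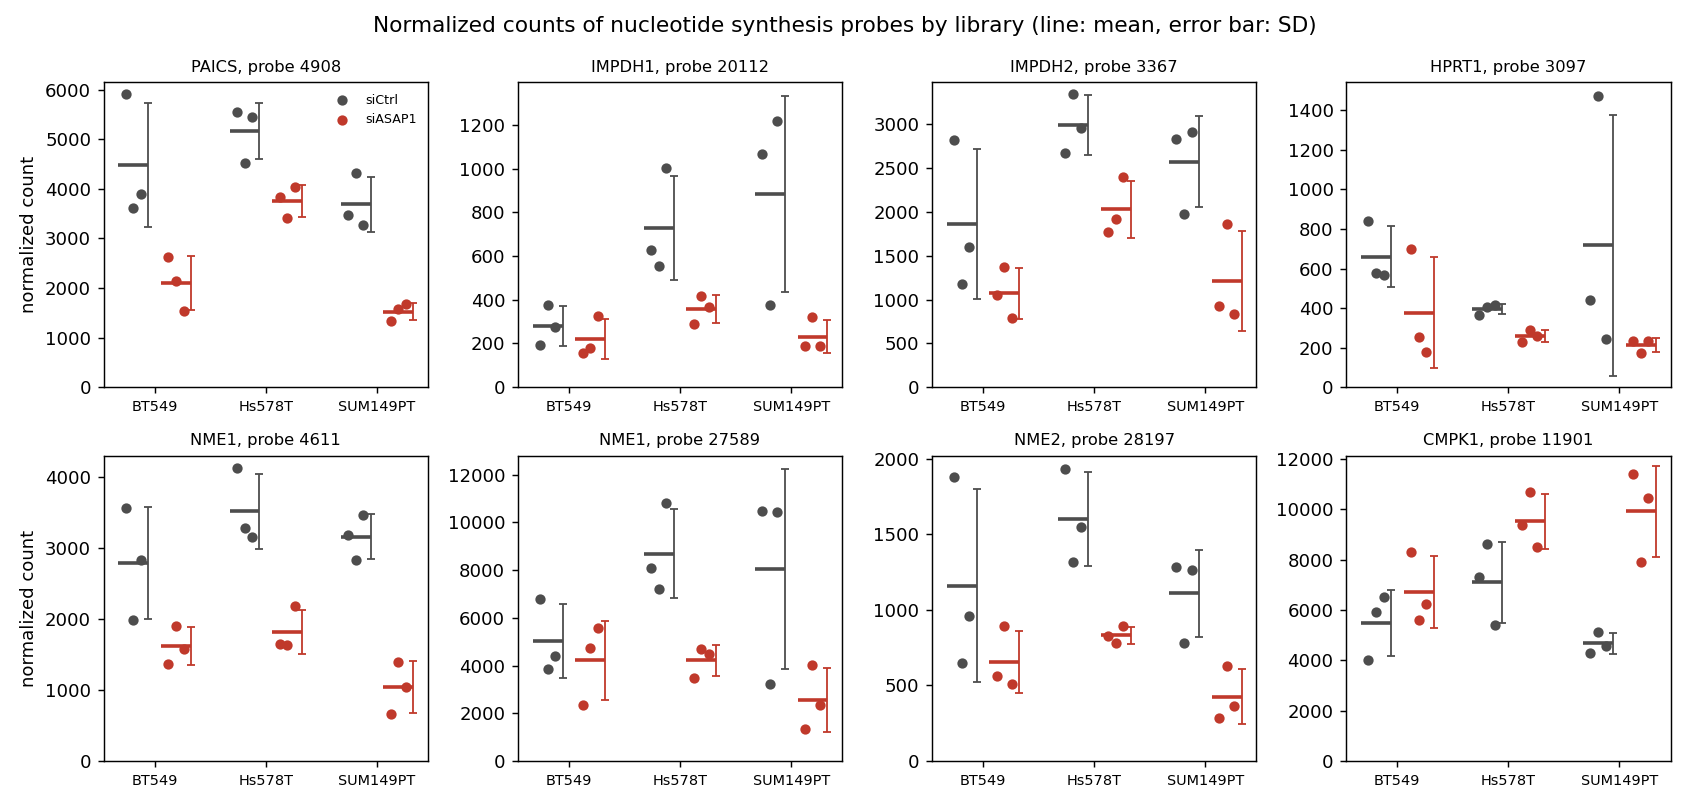
Normalized counts (y axes, linear, from 0) of 8 member probes in each of the 18 libraries, by cell line (x axes), siCtrl in grey and siASAP1 in red, with horizontal lines at the mean and error bars of 1 SD. All 3 siASAP1 libraries sit below all 3 siCtrl libraries for PAICS and NME1 (probe 4611) in every line, while IMPDH1 overlaps in BT549 and CMPK1 lies higher in SUM149PT siASAP1.

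In the de novo route, PAICS, which carries 2 consecutive steps of the purine ring, was among the members that fell. In BT549 its probe gave 2617, 2144 and 1529 in siASAP1 against 5916, 3616 and 3893 in siCtrl. The Hs578T libraries gave 3824, 3400 and 4030 against 5542, 4523 and 5448. For SUM149PT the counts were 1326, 1568 and 1672 against 3480, 4316 and 3267. The siASAP1 libraries lay below the siCtrl libraries without overlap in all 3 lines. PAICS had a Log2 FC of -0.94 over all libraries (SE 0.17, limma, Benjamini-Hochberg adjusted p = 0.0071), and it stayed past this limit when any of the 18 libraries was left out (adjusted p 0.0057 to 0.018). Within the lines PAICS had a Log2 FC of -1.09 for BT549, -0.46 for Hs578T and -1.27 for SUM149PT (-1.15 without siCtrl 2). By the limits used for single lines, an absolute Log2 FC above 1 at an unadjusted p under 0.05, it fell in BT549 and SUM149PT, and in BT549 it no longer did without siASAP1 3 or siCtrl 1.

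ATIC, which closes the purine ring, gave 288, 143 and 209 against 332, 270 and 198 in BT549. The Hs578T values were 152, 171 and 255 against 154, 222 and 323. In SUM149PT it gave 251, 141 and 239 against 318, 1099 and 288, the 1099 being the library labelled siCtrl 2. ATIC overlapped in BT549 and Hs578T and not in SUM149PT, and its Log2 FC over all libraries was -0.59 (SE 0.28, limma, Benjamini-Hochberg adjusted p = 0.315). PPAT, the first committed enzyme, whose start lies beside that of PAICS, had low counts of 0 to 181 and a Log2 FC of -0.67 (SE 0.63, adjusted p = 0.666 by limma), and its groups overlapped in every line. GART, a further ring enzyme, had a Log2 FC of 0.78 (SE 0.72), and the ribose phosphate synthetases PRPS1 (probe 13225) and PRPS2 had -0.69 (SE 0.53) and -0.63 (SE 0.53), none past the limit. ADSL and the other PRPS1 probe (5465) reached the minimum in only 2 lines each, and PFAS in none, with at most 10.0.

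At the branch to GMP, IMPDH2 fell over all libraries, and both IMPDH1 and IMPDH2 fell in SUM149PT by the limits for single lines. The fitted Log2 FC of each was below 0 in every line. IMPDH1 (chr7:128392277-128410252, minus strand) gave 156, 179 and 324 against 192, 375 and 275 in BT549, where the groups overlapped. In Hs578T it gave 290, 419 and 365 against 630, 556 and 1002, all siASAP1 libraries being the lower. In SUM149PT it gave 189, 319 and 187 against 1067, 375 and 1216, again without overlap, the 375 being the library labelled siCtrl 2. The line-wise Log2 FC of IMPDH1 was -0.37 (SE 0.45) for BT549, -0.99 (SE 0.32) for Hs578T and -1.81 (SE 0.55) for SUM149PT, where it fell by the limits for single lines, as it did without siCtrl 2 (-2.34, SE 0.40). Over all libraries it was -1.06 (SE 0.28), and the adjusted p of 0.059 (limma, Benjamini-Hochberg) missed the limit. Without the library labelled SUM149PT siCtrl 2, IMPDH1 fell by 1.16 on the log2 scale over the remaining 17 libraries, with an adjusted p of 0.046 by limma, and without BT549 siASAP1 3 the adjusted p was 0.035. These were the only 2 of the 18 fits that left out a library in which IMPDH1 passed (adjusted p 0.035 to 0.114 over the 18). With a minimum mean of 50 the adjusted p was 0.045, and with the replicate number as a block it was 0.167.

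IMPDH2 (chr3:49024325-49029408, minus strand) gave 1051, 1375 and 793 against 2826, 1180 and 1597 in BT549, with overlap. In Hs578T it gave 1775, 1918 and 2400 against 2671, 3346 and 2962. SUM149PT gave 931, 1867 and 832 against 2829, 1976 and 2914. The siASAP1 libraries lay below the siCtrl libraries in Hs578T and SUM149PT. IMPDH2 fell over all libraries, with a Log2 FC of -0.82 (SE 0.21, limma, Benjamini-Hochberg adjusted p = 0.047), but of the 18 fits that left out a library it stayed past the limit in 3, without BT549 siASAP1 2, BT549 siCtrl 2 or SUM149PT siASAP1 2 (adjusted p 0.031 to 0.099 over the 18), and without the library labelled SUM149PT siCtrl 2 the adjusted p was 0.052. It also missed the limit with scaling by library totals (0.068) and with no filter on low counts (0.078). For BT549, Hs578T and SUM149PT the line-wise Log2 FC of IMPDH2 was -0.74, -0.57 and -1.16, the last being -1.34 without siCtrl 2. The difference between lines was not past the limit for either gene.

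The log2 ratio of IMPDH1 to IMPDH2 within a library sets the 2 genes beside each other. Since every probe has its own yield, the ratio serves only to compare libraries. In BT549 it was -2.74, -2.93 and -1.29 in siASAP1 and -3.87, -1.65 and -2.53 in siCtrl. In Hs578T it was -2.61, -2.19 and -2.72 against -2.08, -2.59 and -1.56. In SUM149PT it was -2.29, -2.54 and -2.15 against -1.41, -2.39 and -1.26. The groups overlapped in every line, and the mean ratio moved by 0.37 for BT549, -0.43 for Hs578T and -0.64 for SUM149PT, beside pooled SDs of 1.01, 0.41 and 0.46. Without the library labelled SUM149PT siCtrl 2 the SUM149PT groups were apart and the mean ratio moved by -1.0. The longest stretch of identical bases that any IMPDH1 and IMPDH2 transcripts share is 17 bases.

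**Figure D2:**
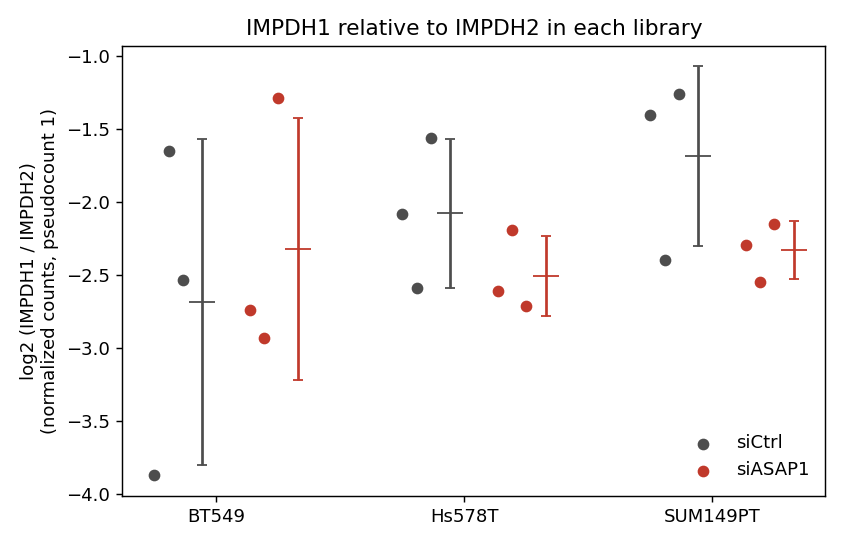
log2 ratio of the IMPDH1 to the IMPDH2 normalized count (y axis) in each library by cell line (x axis), siCtrl in grey and siASAP1 in red, with the mean and 1 SD beside the points. The treatments overlap in all 3 lines, and the library labelled SUM149PT siCtrl 2, at -2.39, lies among the siASAP1 libraries.

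The other enzymes around AMP and GMP moved in different directions. GUK1, the guanylate kinase, gave 116, 96.3 and 313 against 39.9, 88.7 and 63.1 in BT549, without overlap. It rose there by the limits for single lines (Log2 FC 1.31, SE 0.56, limma, Benjamini-Hochberg adjusted p = 0.633), and not without siASAP1 3, siCtrl 1 or siCtrl 3. AK4, a mitochondrial adenylate kinase, gave 118, 38.7 and 44.7 against 215, 169 and 126 in BT549, where it fell (Log2 FC -1.47, SE 0.53, adjusted p = 0.599 by limma), though not without siASAP1 2, siASAP1 3 or siCtrl 1. In Hs578T AK4 gave 29.5, 20.8 and 43.7 against 8.44, 5.71 and 19.7, every siASAP1 library being the higher (Log2 FC 1.50, SE 0.71, not past the limits). AK4 had the smallest p of all members for a difference between lines, and its adjusted p was 0.397 (limma F test). AK1, the cytosolic adenylate kinase, and ADSS, the adenylosuccinate synthetase, had a Log2 FC over all libraries of 0.34 (SE 0.37) and -0.08 (SE 0.38). GMPS, which makes GMP, had -0.53 (SE 0.66), with low counts of 0 to 37.2, and reached the minimum in only 2 lines. ADSSL1, the other adenylosuccinate synthetase, reached the minimum in no line.

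In the purine salvage group HPRT1, which returns hypoxanthine and guanine to nucleotides, gave 699, 256 and 178 against 839, 576 and 565 in BT549. In Hs578T it gave 227, 289 and 259 against 367, 406 and 414, and in SUM149PT 232, 172 and 234 against 440, 1471 and 243. The groups were apart in Hs578T and SUM149PT and overlapped in BT549. HPRT1 had a Log2 FC of -1.0 over all libraries (SE 0.30, limma, Benjamini-Hochberg adjusted p = 0.097). It passed in 1 of the 18 fits that left out a library, the fit without BT549 siASAP1 1 (adjusted p 0.044 to 0.183 over the 18). Without the SUM149PT siCtrl library that gave 1471, its Log2 FC was -0.77 (SE 0.24, adjusted p = 0.115 by limma). APRT, the adenine counterpart, had -0.58 (SE 0.33) and ADK, which phosphorylates adenosine, -0.39 (SE 0.32), neither past the limit.

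Among the pyrimidine genes none fell or rose over all libraries, and CMPK1, the UMP and CMP kinase, had the smallest p of the group. It gave 8315, 5593 and 6232 against 4010, 5918 and 6514 in BT549. Its Hs578T counts were 9389, 10685 and 8516 against 7304, 8606 and 5413. In SUM149PT it gave 11421, 7919 and 10443 against 4292, 5143 and 4569. CMPK1 was higher without overlap in SUM149PT only, where it rose by the limits for single lines (Log2 FC 1.08, SE 0.33, and 1.15 without siCtrl 2), and over all libraries its Log2 FC was 0.61 (SE 0.17, limma, Benjamini-Hochberg adjusted p = 0.076, and 0.047 with scaling by library totals).

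UMPS, which makes UMP, gave 22.5, 25.6 and 13.1 (probe 12158) in SUM149PT siASAP1 against 84.4, 52.8 and 54.3, without overlap, and fell there by the same limits (Log2 FC -1.62, SE 0.63, and -1.73 without siCtrl 2). It passed in 2 of the 6 fits that left out a SUM149PT library. Its Log2 FC was -0.03 in BT549 and 0.40 in Hs578T. UCK2, the uridine and cytidine kinase, gave 1497, 1905 and 2132 against 1958, 1373 and 1846 in BT549. In Hs578T UCK2 gave 771, 703 and 913 against 1038, 836 and 1703, and in SUM149PT 791, 1067 and 908 against 1635, 1248 and 2513. UCK2 was apart in SUM149PT alone of the 3 lines, with a Log2 FC over all libraries of -0.45 (SE 0.20, limma, Benjamini-Hochberg adjusted p = 0.274). CTPS1 (probe 16302) and CTPS2, which make CTP, had -0.06 (SE 0.29) and -0.53 (SE 0.39), and UCK1 had 0.28 (SE 0.55). CAD was tested only in Hs578T (Log2 FC 0.74, SE 1.53), and DHODH, UMPS probe 7551 and CTPS1 probe 1637 in no line. UMPS and CTPS1 were tested in every line by their other probes. CAD and DHODH had low counts, so the early pyrimidine steps could hardly be described, and the reason for these counts was not tested.

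Of the nucleoside diphosphate kinases, which pass a phosphate to purine and pyrimidine diphosphates alike, NME1 had the smallest adjusted p of all members. Its probe 4611 gave 1369, 1899 and 1570 against 3560, 1979 and 2819 in BT549. In Hs578T it gave 1641, 1624 and 2172 against 4115, 3270 and 3151, and in SUM149PT 664, 1397 and 1042 against 3174, 2827 and 3458. No siASAP1 library reached the lowest siCtrl library of its line. In SUM149PT the Log2 FC was -1.67, and -1.74 without siCtrl 2. The Log2 FC over all libraries was -1.13 (SE 0.19, limma, Benjamini-Hochberg adjusted p = 0.0043), and this call held in all 18 fits that left out a library (adjusted p 0.0029 to 0.015).

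The other NME1 probe, 27589, differed in spread. In BT549 it gave 2348, 4714 and 5570 against 6781, 3861 and 4400, in Hs578T 3489, 4711 and 4483 against 8093, 7192 and 10801, and in SUM149PT 1327, 4014 and 2337 against 10473, 3207 and 10453. The groups were apart only in Hs578T, and in SUM149PT the library labelled siCtrl 2, at 3207, lay below the highest siASAP1 library. Its Log2 FC over all libraries was -0.98 (SE 0.29, limma, Benjamini-Hochberg adjusted p = 0.087), and by the limits for single lines it fell in Hs578T (-1.03) and SUM149PT (-1.61, and -2.17 without siCtrl 2).

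NME2 gave 561, 893 and 511 against 1875, 646 and 959 in BT549. NME2 counts in Hs578T were 828, 778 and 890 against 1932, 1318 and 1549, and in SUM149PT 284, 631 and 360 against 1283, 779 and 1263. It overlapped in BT549 and was lower without overlap in the other 2 lines. In SUM149PT its Log2 FC was -1.43, and -1.66 without siCtrl 2. NME2 fell over all libraries (Log2 FC -1.03, SE 0.22, limma, Benjamini-Hochberg adjusted p = 0.023) and did so in 15 of the 18 fits that left out a library, the exceptions being BT549 siCtrl 1, SUM149PT siASAP1 3 and SUM149PT siCtrl 1 (adjusted p up to 0.055). NME1 and NME2 transcripts share identical stretches of up to 23 bases, and whether a probe reads both genes was not tested, since the probe sequences were not used here.

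NME4, the mitochondrial form, and NME6 did not pass a limit, with a Log2 FC over all libraries of -0.11 (SE 0.31, probe 27590), -0.68 (SE 0.62, probe 12220) and -0.12 (SE 0.28). NME3 gave 46.3, 17.9 and 21.0 against 0, 15.5 and 0 in SUM149PT, where it rose by the limits for single lines. With 2 siCtrl libraries at 0, the fitted Log2 FC of 3.41 (SE 1.46) depends on the pseudocount of 1, and with a pseudocount of 0.1 it was 5.60 and not past the limits, nor did it pass with TMM scaling or voom weights. Without siCtrl 2, which leaves both siCtrl libraries at 0, it was 4.76.

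Deoxynucleotide genes gave no call over all libraries. TK1, the S-phase thymidine kinase, gave 9.07, 4.05 and 5.33 against 34.6, 27.7 and 22.7 in Hs578T, apart and low in count. It fell there by the limits for single lines (Log2 FC -2.08, SE 0.74). TK1 gave 7.11, 17.9 and 11 against 16.2, 17.6 and 9.82 in BT549 and 11.9, 6.41 and 0 against 10.0, 13.7 and 20.8 in SUM149PT, so these groups overlapped. Over all libraries the Log2 FC was -1.37 (SE 0.47, limma, Benjamini-Hochberg adjusted p = 0.145).

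DTYMK, the thymidylate kinase, gave 445, 608 and 481 in SUM149PT siASAP1 against 1878, 600 and 2594, where it fell by the same limits although the groups overlapped at the library labelled siCtrl 2 (Log2 FC -1.50, SE 0.57, and -2.12, SE 0.35, without it). In BT549 its Log2 FC was 0.86 (SE 0.54). RRM2, the inducible small subunit of ribonucleotide reductase, gave 1124, 1940 and 1017 against 737, 711 and 913 in BT549, all siASAP1 libraries being the higher. In SUM149PT RRM2 gave 679, 991 and 662 against 1512, 1344 and 1576, all being the lower. Neither passed the limits (Log2 FC 0.74, SE 0.37, and -0.95, SE 0.36), and the adjusted p of the difference between lines was 0.746 (limma F test), with 0.749 for DTYMK.

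TYMS, which makes dTMP, gave 2679, 7182 and 3999 in SUM149PT siASAP1 against 18949, 4157 and 20373, so that the library labelled siCtrl 2 again lay within the siASAP1 range (Log2 FC -1.46, SE 0.68, not past the limits). TK2, the mitochondrial thymidine kinase, gave 725, 121 and 413 (probe 27960) there against 11.4, 1282 and 11.2, and the same library was the highest of the 6. DCTD, which deaminates dCMP, gave 1343, 695 and 604 against 1184, 1193 and 1034 in BT549. In Hs578T DCTD gave 1192, 1507 and 1371 against 1594, 2108 and 1827, and in SUM149PT 2987, 1668 and 2870 against 2137, 4292 and 2270. DCTD was apart in Hs578T only, with a Log2 FC over all libraries of -0.36 (SE 0.19, limma, Benjamini-Hochberg adjusted p = 0.374). The remaining members RRM1, RRM2B, DCK and DUT (probe 25642) had a Log2 FC over all libraries of -0.53 (SE 0.37), -0.18 (SE 0.26), -0.35 (SE 0.29) and -0.37 (SE 0.67). DUT probe 1994 had 0 reads in all 18 libraries, which allows a normalized count of up to 4.80 (3 reads in the library where a read weighs most), and TK2 probe 16749 reached the minimum in no line. Intervals and limits of this kind cover counting error only.

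Set side by side, the purine probes (16 tested, de novo, branch and salvage together) had a median Log2 FC over all libraries of -0.58 with 2 that fell, the pyrimidine probes (6 tested) -0.24 with none, and the deoxynucleotide probes (10 tested) -0.35 with none. The median of the 7 nucleoside diphosphate kinase probes was -0.68, with 2 that fell. In Hs578T the pyrimidine median was 0.40 against -0.21 for purines, and in SUM149PT the medians were -0.94 and -1.16. Without the library labelled SUM149PT siCtrl 2 the SUM149PT medians were -1.23 for the pyrimidine and -0.66 for the purine probes, so that their order turned, and those over the remaining 17 libraries were -0.12 and -0.40. These medians describe the classes and were not tested against each other.

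**Figure D3:**
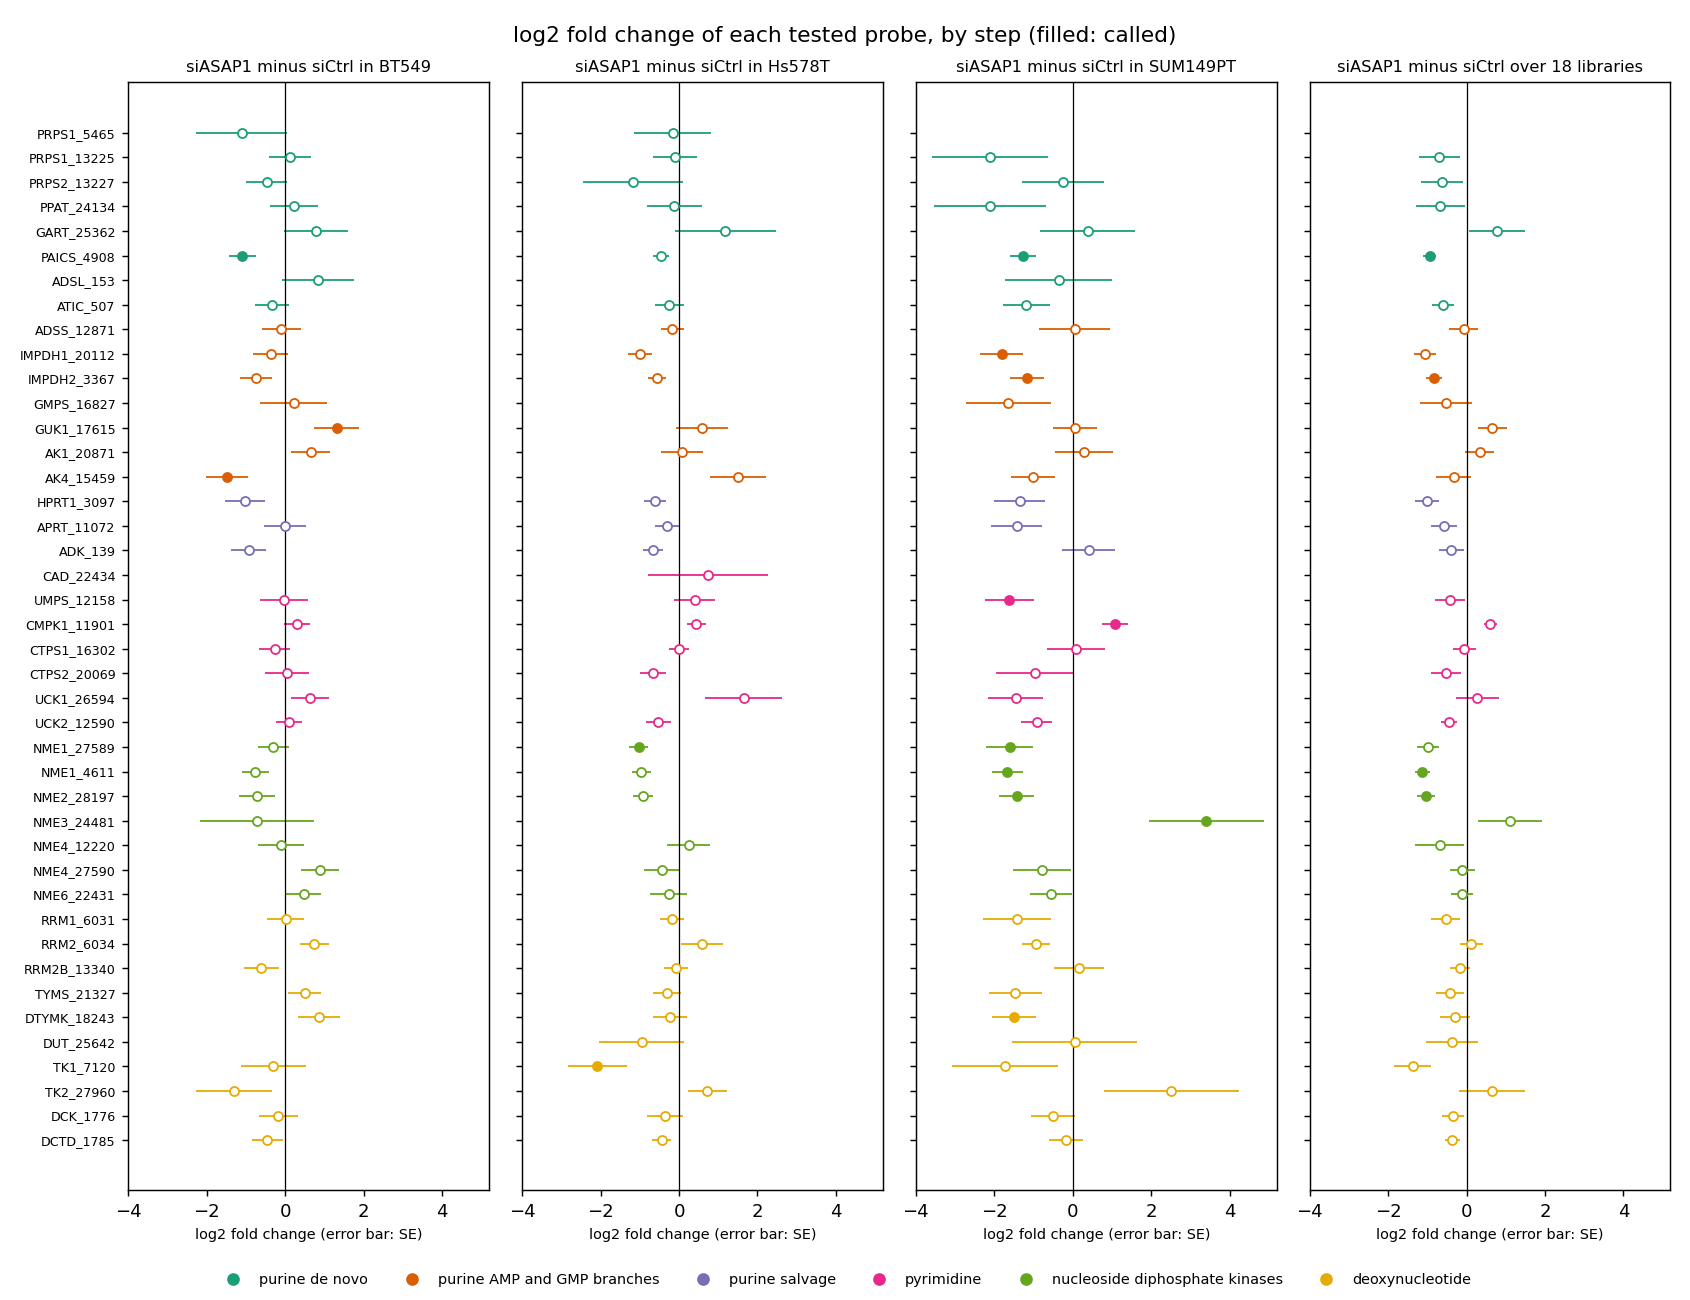
Log2 FC of siASAP1 against siCtrl (x axes, error bars of 1 SE) for every tested member probe (rows, coloured by step) in BT549, Hs578T, SUM149PT and over all 18 libraries, with filled points for calls by the limits of each comparison. Points spread around 0 in BT549 and lie mostly to the left of 0 in SUM149PT, where 28 of 39 were below 0.

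Taken line by line, SUM149PT held the most calls among the members. By the limits for single lines, 8 of 39 member probes fell in SUM149PT (DTYMK, IMPDH1, IMPDH2, both NME1 probes, NME2, PAICS and UMPS) and 2 rose (CMPK1 and NME3), where 4.29% of all probes fell and 5.27% rose. In BT549 2 of 40 fell (PAICS and AK4) and 1 rose (GUK1), where 3.69% fell and 3.28% rose, and in Hs578T 2 of 39 fell (NME1 probe 27589 and TK1) and none rose, where 1.44% fell and 1.34% rose. In either direction 25.6% of member probes passed in SUM149PT, 7.50% in BT549 and 5.13% in Hs578T, beside 9.56%, 6.97% and 2.78% of all probes. The median Log2 FC of the members was -0.11 for BT549, -0.24 for Hs578T and -0.97 for SUM149PT, beside medians over all probes of -0.00, 0.01 and 0.09. No probe of any kind had an adjusted p under 0.05 in a single line by limma with the 6 libraries of a line and the minimum mean of 10 (0% of probes). Other settings gave such probes: 6 in BT549 and 3 in SUM149PT with a minimum mean of 50, 9 and 4 with no filter, 6 in BT549 with the probes of a symbol summed, 5 in SUM149PT with library totals and 8 in BT549 with voom weights. A single fit of all 18 libraries gave 22 in BT549, 1 in Hs578T and 260 in SUM149PT, among them IMPDH1, NME1 (probe 4611) and PAICS in SUM149PT. Without BT549 siASAP1 1 there were 544 in BT549, with ADK, AK4, DTYMK and HPRT1 among them, and without BT549 siCtrl 1 there were 2. Without SUM149PT siCtrl 2 there were 107 in SUM149PT, with IMPDH1, DTYMK and TK2 among them (adjusted p 0.049 each, limma). At an unadjusted p under 0.05 there were 3 member probes in BT549 (7.80% of all probes), 8 in Hs578T (5.28%) and 12 in SUM149PT (10.2%).

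Without overlap, 13 of the 39 tested probes lay lower in SUM149PT siASAP1 and 2 higher, where 8.41% and 8.87% of all probes did. In Hs578T 11 lay lower and 1 higher (5.78% and 6.31% of all probes), and in BT549 3 lay lower and 2 higher (6.51% and 7.35%). Without the library labelled SUM149PT siCtrl 2, 19 of 37 tested probes lay lower and 3 higher, where 21.4% and 23.3% of all probes did, and the median Log2 FC of the members was -1.01. By the limits for single lines 12 then fell and 3 rose, 15 in place of 10, where 8.94% of all probes fell and 14.4% rose. The probes added were APRT (-1.96), RRM2 (-1.01), TYMS (-2.21) and UCK2 (-1.15), which fell, and TK2 (4.75), which rose. Without SUM149PT siASAP1 1, siASAP1 3 or siCtrl 1 the count was 3, and without siCtrl 3 it was 4. Of all probes 517 of 10005, 573 of 10079, 501 of 10118 and 595 of 10140 then passed, in that order. Of the 6 fits that left out a SUM149PT library, PAICS and NME1 probe 4611 passed in 6 and IMPDH1 in 5. CMPK1 passed in 3, NME3 in 1, and UMPS, DTYMK, NME2, IMPDH2 and NME1 probe 27589 in 2 each. In BT549 the count of calls was 8 without siASAP1 1 and 0 without siASAP1 3. There 2169 of 9658 and 325 of 9444 of all probes passed. For Hs578T it was 4 without siASAP1 2, siASAP1 3 or siCtrl 2 and 1 without siASAP1 1. All-probe calls were then 473 of 9514, 173 of 9494, 314 of 9488 and 158 of 9508, in that order.

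None of the 39 member probes tested had an adjusted p under 0.05 for a difference of the siASAP1 effect between the lines (limma F test, or with voom weights), where 0.00955% of all probes did. At an unadjusted p under 0.05 there were 3, AK4, RRM2 and DTYMK, where 6.22% of all probes passed. The larger Log2 FCs in SUM149PT were thus not shown to differ from those in the other lines.

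Summed over all members, the normalized counts were 33527 to 35522 in SUM149PT siASAP1 against 47978 to 63355 in siCtrl (59572 to 63355 without siCtrl 2), and 35994 to 39952 against 44558 to 55957 in Hs578T. In BT549 they were 33576 to 37797 against 33278 to 45011, which overlapped. A list of 22 proliferation genes moved beside them in SUM149PT, with summed counts of 5534 to 8128 in siASAP1 against 15185 to 19408 in siCtrl (17178 to 19408 without siCtrl 2). Of these, MCM3 alone gave 1947, 4029 and 2401 in siASAP1 and 9259, 4000 and 10750 in siCtrl, with overlap. Such sums weigh the probes with the highest counts most, which among the members were TYMS, CMPK1 and NME1 probe 27589. The proliferation sums were 10512 to 12599 against 11536 to 12441 in BT549 and 6422 to 7054 against 6040 to 10341 in Hs578T, overlapping in both. In SUM149PT 5 of 20 tested proliferation probes fell (25.0%, beside 4.29% of all probes) and all 20 were below 0, with a median Log2 FC of -1.03. Without siCtrl 2, 9 of 21 fell and 16 were below 0, with a median of -1.32, while the medians were 0.03 in BT549 and -0.00 in Hs578T. The part of proliferation in the member results was not tested. MCM6, a subunit of the replicative helicase, fell in every line by the limits for single lines and over all libraries (Log2 FC -1.38, SE 0.22, limma, Benjamini-Hochberg adjusted p = 0.0035), and was the only gene of that list past the limit over all libraries. CCNE2, GINS2 and CCNA2, of the cell cycle and replication, had -1.18, -1.06 and -0.69 and adjusted p from 0.132 to 0.141 by limma.

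Genes next to the synthesis routes, for breakdown, salvage, transport, pool cleaning and folate supply, were called at about the share of all probes. Of 46 probes tested over all libraries 1 fell and none rose (2.17%, beside 1.74% of all probes), with a median Log2 FC of -0.10. This was ADA, adenosine deaminase, which gave 8.89, 10.4 and 7.30 against 57.4, 32.7 and 33.7 in BT549. In Hs578T ADA gave 13.6, 39.9 and 18.1 against 62.4, 43.2 and 28.6, and in SUM149PT 0, 2.56 and 0 against 4.29, 35.5 and 43.2. Its Log2 FC was -2.25 (SE 0.51, limma, Benjamini-Hochberg adjusted p = 0.028), with overlap in Hs578T only. NT5E, the ecto-nucleotidase that makes adenosine outside the cell, gave 637, 394 and 432 against 112, 104 and 116 in BT549, where it rose by the limits for single lines, and had a Log2 FC of 1.46 over all libraries (SE 0.38, adjusted p = 0.056 by limma). XDH, xanthine dehydrogenase, and AK5, a further adenylate kinase, had 1.48 (SE 0.45) and -1.40 (SE 0.47), neither past the limit.

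In the siCtrl libraries the 3 lines could be compared by member level. Of 39 member probes tested, 3 differed between Hs578T and BT549, 6 between SUM149PT and BT549 and 4 between SUM149PT and Hs578T (adjusted p under 0.05 and an absolute log2 difference above 1), which is 7.69%, 15.4% and 10.3% of them, where 13.8%, 18.2% and 20.2% of all probes did.

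AK4 gave the widest gap, with siCtrl counts of 8.44, 5.71 and 19.7 in Hs578T, 215, 169 and 126 in BT549 and 116, 294 and 189 in SUM149PT. SUM149PT was higher than Hs578T by a log2 difference of 4.09 (SE 0.58, limma, Benjamini-Hochberg adjusted p = 0.00059). Hs578T was lower than BT549 by -3.93 (SE 0.58, adjusted p = 0.0012 by limma), and BT549 and SUM149PT overlapped. PRPS2 was 117, 62.9 and 115 in BT549, 4.22, 14.7 and 20.7 in Hs578T and 44.3, 6.38 and 44.8 in SUM149PT, and only Hs578T against BT549 passed (-2.98, SE 0.85, adjusted p = 0.045 by limma). CTPS2 was highest in Hs578T, at 267, 237 and 189, against 32.4, 53.4 and 60.3 in BT549 and 58.6, 22.8 and 38.4 in SUM149PT, which overlapped each other.

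GUK1 was highest in SUM149PT, at 190, 173 and 214, against 39.9, 88.7 and 63.1 in BT549 and 49.8, 23.7 and 38.4 in Hs578T. APRT was 1486, 519 and 1659 in SUM149PT, 367, 405 and 617 in Hs578T and 362, 187 and 169 in BT549, and only SUM149PT against BT549 passed (2.26, SE 0.51, adjusted p = 0.011 by limma). DTYMK followed the same order, at 1878, 600 and 2594 in SUM149PT, 473, 369 and 1205 in Hs578T and 374, 306 and 290 in BT549. In APRT and DTYMK the lowest SUM149PT value is again the library labelled siCtrl 2.

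NME4 (probe 27590) ran the other way, at 167, 153 and 121 in BT549, 39.7, 71.8 and 52.2 in Hs578T and 20.0, 29.2 and 30.4 in SUM149PT, and SUM149PT was below BT549 by -2.44 (SE 0.46, limma, Benjamini-Hochberg adjusted p = 0.0044). RRM2B, the p53-induced small subunit of ribonucleotide reductase, was 41.5, 63.8 and 51.2 in SUM149PT against 316, 216 and 172 in BT549 and 224, 268 and 189 in Hs578T, which did not differ beyond their spread. DCTD was the sixth member between SUM149PT and BT549, with a log2 difference of 1.28 (SE 0.33, adjusted p = 0.023 by limma). Its highest SUM149PT value, 4292 beside 2137 and 2270, is the library labelled siCtrl 2. Without that library the DCTD difference was 0.96, which is not past the limit. IMPDH1, IMPDH2, PAICS, NME1 and NME2 passed in no pair of lines. Without the library labelled SUM149PT siCtrl 2 the counts became 13 against BT549 and 8 against Hs578T. Calls among all 10094 probes tested then rose as well, to 3351 against BT549 and 3103 against Hs578T.

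**Figure D4:**
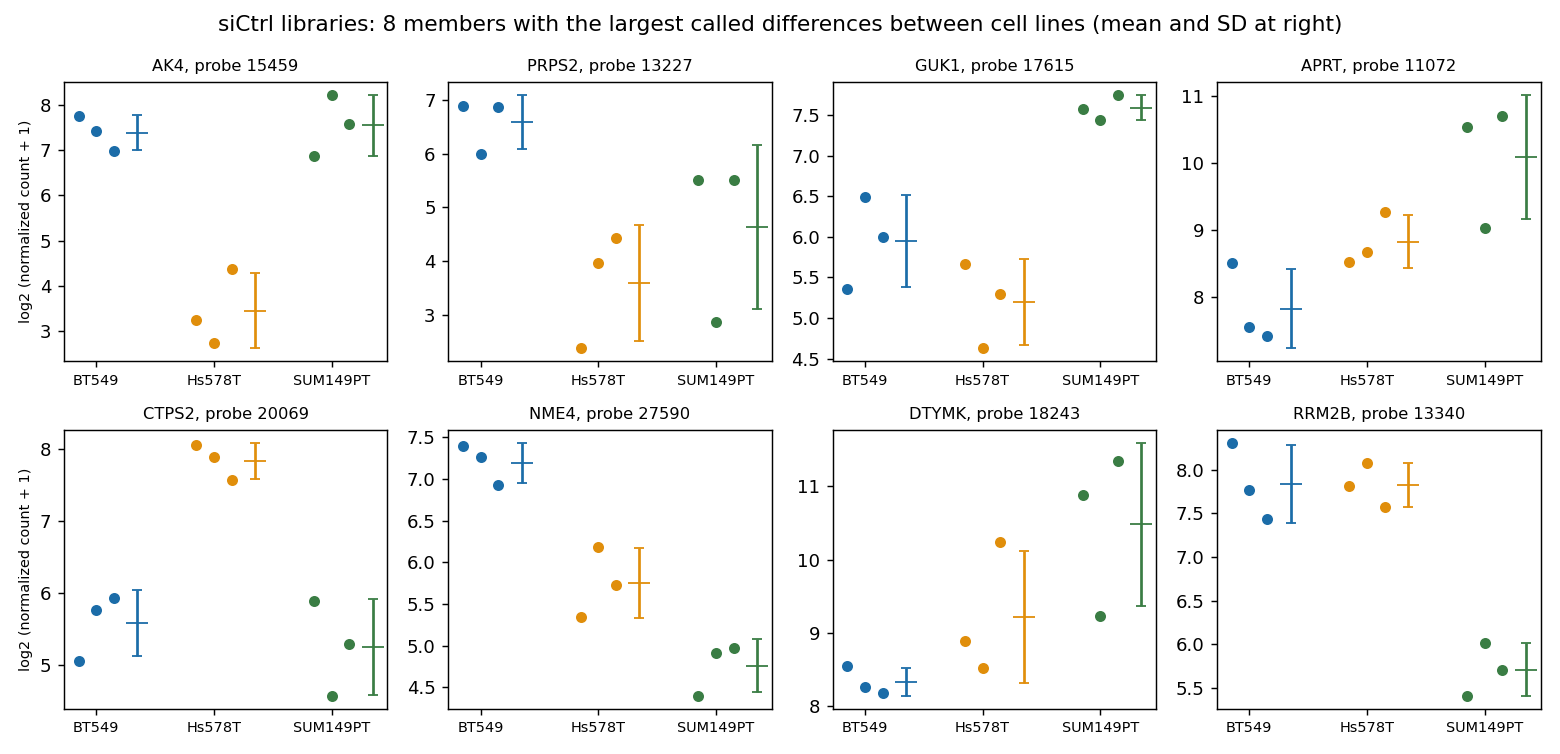
log2 of the normalized count plus 1 (y axes, not starting at 0) in the 3 siCtrl libraries of each cell line (x axes) for the 8 members with the largest called differences between lines, with the mean and 1 SD beside the points. AK4 and PRPS2 are lowest in Hs578T, CTPS2 is highest there, and RRM2B and NME4 are lowest in SUM149PT.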

How the data were processed

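The authors deposited log2 values per probe and library: TempO-Seq reads were normalized with the size factors of DESeq2, and 1 was added before the log2. Tools in the submitters' processing notes are bcl2fastq, Bowtie and DESeq2, and their settings and the genome build are not given in the sources used here. Undoing the log2 gave whole reads (within 0.1 read) for 100% of the values. Libraries held 4.63 M to 12.5 M reads, and depth limits members with low counts.

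From the deposited log2 values, siASAP1 was compared with siCtrl in each line, over all 18 libraries with line as a covariate, by the interaction of line and treatment, and between lines in siCtrl, each with limma 3.58.1 (R 4.3.3, lmFit and eBayes with trend) over the probes whose normalized counts averaged 10 or more, with Benjamini-Hochberg adjustment over them. Within a line the limits were, as in the study, an absolute Log2 FC above 1 with p below 0.05 before adjustment. Elsewhere an adjusted p under 0.05 was used, with an absolute log2 difference above 1 as well for levels between lines. Replicates are labelled as separate samples and the study calls them biological, and p-values measure the spread between these samples. The replicate pairs differed by more than counting noise (chi-square per degree of freedom 10.7 to 276).

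The members and the gene lists were chosen with earlier results of these data known, so no list was tested. Values in every library are given for IMPDH1, IMPDH2, members called in 2 lines or over all libraries, and the 6 further members with the smallest p over all libraries; members called in 1 line are named. For levels between lines the 8 members with the largest called differences are given, and of the neighbouring and proliferation lists the 4 genes with the smallest p. Library values of PPAT, RRM2, TYMS, TK2 and others outside these rules were chosen after their values were seen. Alternatives were other scalings (TMM, library totals), other filters on low counts, a pseudocount of 0.1, summed probes, voom weights, a single fit of all libraries, a replicate block, and leaving out each library. The scripts were tested on simulated data. Coordinates are from GENCODE release 29 (GRCh38) and sequences from RefSeq (GRCh38.p14).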

Additional observations from a re-analysis of the deposited data

How the results depend on the processing

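The count of member probes that fell over all 18 libraries (4) became 0 with the replicate number as a block, and the count that rose (0) became 1, CMPK1, with scaling by library totals. Same-numbered libraries did not deviate together in every line (correlations of -0.39 to 0.14 in BT549, 0.10 to 0.42 in Hs578T and -0.66 to -0.33 in SUM149PT). In Hs578T each siASAP1 library correlated best with its own number. Whether same-numbered libraries were handled together is not given in the sources used here, so results with and without the block are both given. With the replicate block the adjusted p (limma) was 0.050 for PAICS, 0.056 for NME1 probe 4611, 0.116 for NME2 and 0.144 for IMPDH2. In Hs578T the count of calls (2) became 1 with a minimum mean of 50, 4 with the replicate block and 1 with library totals. Of all probes 142 of 6449, 435 of 9500 and 279 of 9412 then passed. The block also gave 37 probes of any kind an adjusted p under 0.05 in Hs578T, NME1 probe 27589 (0.039) among them. In SUM149PT the count (10) became 17 in a single fit of all 18 libraries and 3 with the replicate block. Among all 10078 probes 1560 and 351 then passed. Library totals moved the median Log2 FC of all probes to 0.30 in SUM149PT, 0.12 in Hs578T and 0.15 over all libraries, and the share of higher calls from 55.1% to 74.0%, from 48.1% to 70.3% and from 39.0% to 60.4%. IMPDH2 lost its call over all libraries with library totals (adjusted p 0.068) and with no filter (0.078), and IMPDH1 gained one with a minimum mean of 50 (0.045). The causes were not tested.

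Leaving out 1 library gave 0 to 8 calls in BT549, 1 to 4 in Hs578T, 3 to 15 in SUM149PT, and 2 to 4 that fell over all libraries (2 without BT549 siCtrl 1, SUM149PT siASAP1 3 or SUM149PT siCtrl 1), with 0 to 0 that rose and 0 to 0 for a difference between lines. Calls among all probes ran from 325 to 2169 in BT549, 158 to 634 in Hs578T and 501 to 2325 in SUM149PT. Over all libraries 61 to 125 probes fell. Levels gave 1 to 3 (Hs578T against BT549), 2 to 13 (SUM149PT against BT549) and 4 to 8 (SUM149PT against Hs578T). For all probes these counts ran from 906 to 1405, from 1313 to 3351 and from 1362 to 3103, in the same order. The change of the IMPDH1 to IMPDH2 ratio in BT549 ran from -0.23 to 0.88, turning direction without siASAP1 3 (-0.15) and without siCtrl 1 (-0.23), and from -0.68 to -0.17 in Hs578T and -1.0 to -0.43 in SUM149PT. Low counts limit PFAS, DHODH, ADSSL1, ADSL, CAD, TK1, NME3, GMPS and DUT most.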
